A study of Mus musculus with 6 samples.

Results

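The TNF superfamily of ligands and the TNF receptor superfamily were followed in bulk RNA-seq of CT2A tumours. CT2A is a mouse glioblastoma line. Members were the genes whose symbols begin with Tnfsf or Tnfrsf and a number, together with Tnf, Lta, Ltb, Ltbr, Cd40, Cd40lg, Cd27, Cd70, Fas and Fasl, with at least 10 reads summed over the 6 libraries. This gave 42 of 55291 gene symbols: 17 ligands, 24 receptors and Tnfsf13os, an RNA read from the strand opposite Tnfsf13. The labels' protocol gives the material as total RNA from between 5000 and 20000 sampled CT2A cells per library. It was prepared with Smart-seq2, a method for small cell inputs that does not mark the strand. Genes known from leukocytes were read in every library, as given below, so the input was not CT2A cells alone. The KO group was 3 libraries of subcutaneous CT2A tumour with the genotype Siglece KO, and the WT group was 3 libraries with the genotype WT. The labels give the tissue as a subcutaneous tumour but the source name as brain, and this conflict could not be settled. The series' design text assigns the genotype to the mouse rather than to the line. Siglece encodes Siglec-E, a sialic acid-binding inhibitory receptor of myeloid cells. The knockout allele and the strain, sex and age of the mice are not stated in the labels used here, nor is it said whether each library came from a separate animal, so p-values measure the spread between these libraries, which may be technical.

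Ligands of the family are mostly trimeric proteins anchored in the cell membrane, and several are released by proteases. They cluster their receptors, which either recruit TRAF adaptors and switch on NF-kB and stress kinases, or carry a cytoplasmic death domain that can start apoptosis. A few receptors are decoys that bind ligand without signalling. In tumours the family is known for macrophage-derived TNF, for costimulation of T cells, for survival signals to B and plasma cells, and for TWEAK (Tnfsf12) and its receptor Fn14 (Tnfrsf12a), which glioma cells can carry.

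Library totals ran from 24369359 to 40574093 reads, and 3 reads equalled 0.0820 to 0.150 CPM, the reads of a gene scaled to a common library size. Siglece had 0, 8 and 0 reads in KO replicates 1, 2 and 3 and 74, 99 and 64 in the WT replicates. KO replicate 2 stood apart within its group. The summed level of 8 leukocyte genes was 3260, 1081 and 4167 CPM in KO replicates 1, 2 and 3 against 389 to 495 CPM in WT, and all 8 were higher in KO by edgeR. Vim, a filament gene not specific to glia, made up most of the summed level of the 10 listed glial genes, and without it the sum was 68.5, 563 and 47.9 CPM in KO replicates 1, 2 and 3 and 779 to 785 CPM in WT. Sox2, Olig2 and Nes, known from glioma and neural progenitors, were present in every library. Each was lower in every KO library than in any WT library, but did not pass by edgeR. In 7 of the 8 tested glial genes every KO library lay below every WT library, a pattern found in 19.5% of all genes. Of the astrocyte genes, Slc1a3 was called lower, with means of 4.56 (KO) and 21.2 CPM (WT), Gfap averaged 2.66 and 8.76 CPM and did not pass, and Aqp4 and Slc1a2 averaged under 1 CPM in both groups. Genes of other host cell types were higher in KO as well, with 7 of 9 macrophage genes called (2423 to 8260 CPM summed, against 988 to 1687 CPM in WT), 6 of 7 fibroblast genes (9323 to 27686 against 1635 to 2617 CPM), 5 of 6 endothelial genes (287 to 908 against 59.7 to 90.3 CPM), 4 of 5 skeletal muscle genes (258 to 1966 against 76.4 to 184 CPM) and 3 of 5 mast cell genes (197 to 795 against 45.5 to 76.9 CPM). Of the dendritic cell genes 3 of 6 were called higher, and of the neutrophil genes 2 of 3 tested. For adipocytes it was 1 of 5 and for skin epithelium 0 of 2 tested. The part of these cell types in the results below was not tested. In bulk samples, more cells of a type and more RNA per cell cannot be told apart.

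Of the 42 members, 40 had enough reads to be tested, and 16 of them were higher in KO tumours at an adjusted p under 0.05 in edgeR's quasi-likelihood test. None was lower by that test, although 2 had an unadjusted p under 0.05 in that direction, and DESeq2 called 1 lower (6.83% of all genes), limma-voom 0, and limma-voom with quality weights 4 (25.5% of all genes). Among all 18621 genes tested, 11.2% were called higher and 0.226% lower. The called members were 6 of 16 tested ligands and 10 of 23 tested receptors. The median log2 fold change was 1.73 over tested ligands and 1.56 over tested receptors, beside -0.045 over all genes tested. In 29 of the 40 members every KO library lay above every WT library, a pattern found in 24.6% of all genes, and in 3 every KO library lay below, against 19.5% of all genes. The plot of fold changes shows ligands and receptors on both sides of 0, with most to the right.

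**Figure D1:**
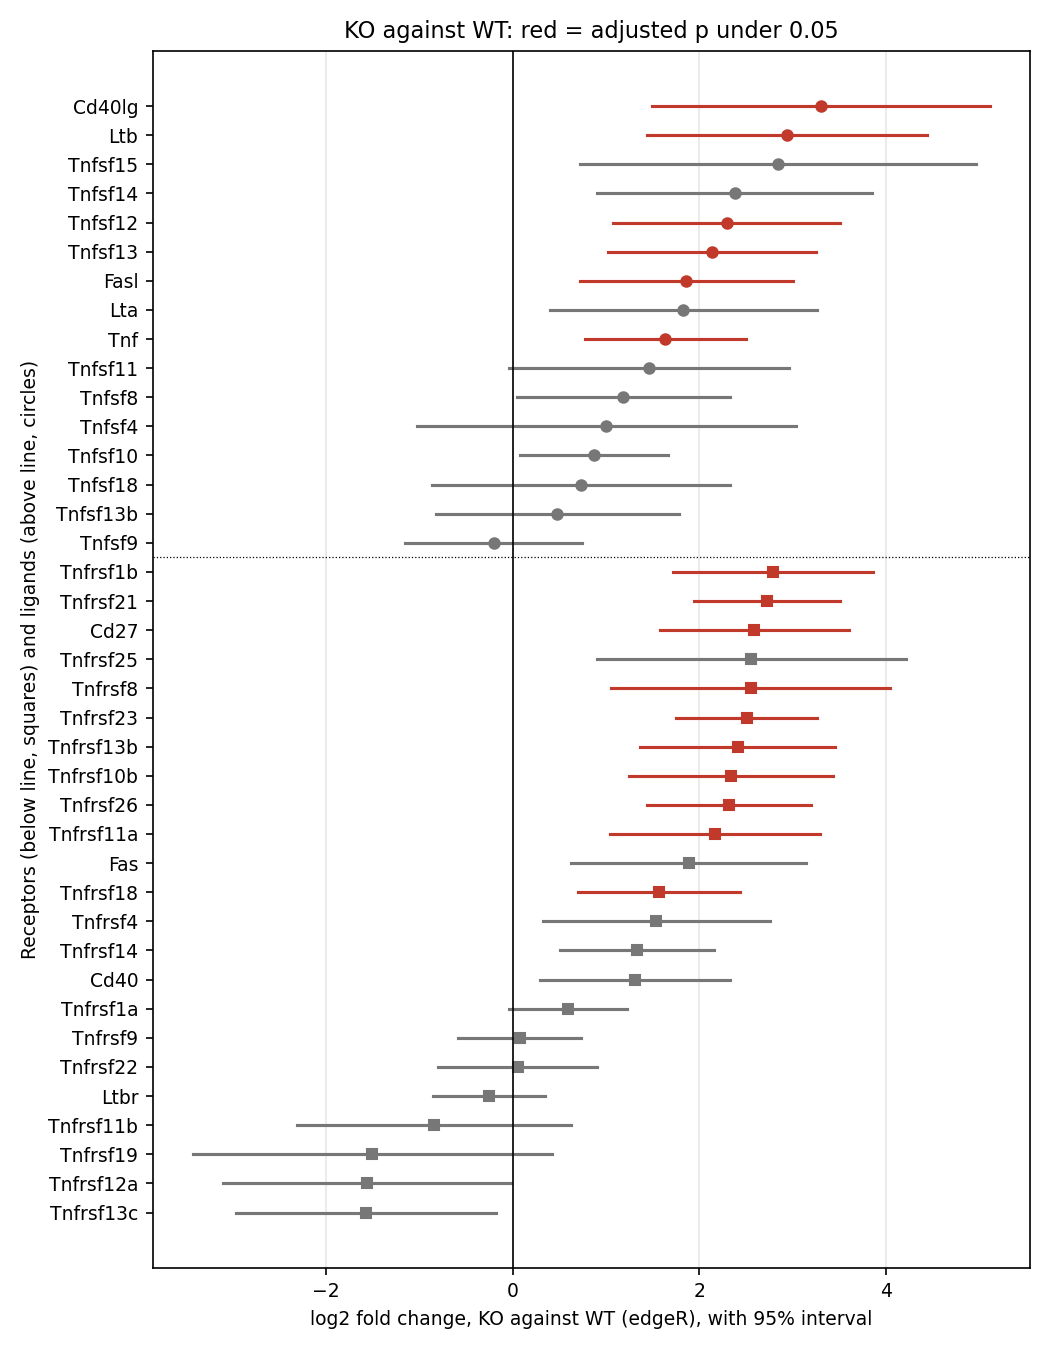
The x axis gives the log2 fold change of KO against WT from edgeR with its 95% interval for the 39 tested ligands and receptors. Red marks an adjusted p under 0.05. All 16 red genes lie to the right of 0, and the 4 receptors farthest to the left, Tnfrsf13c, Tnfrsf12a, Tnfrsf19 and Tnfrsf11b, are grey.

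Among the cytokine ligands, Tnf and Ltb rose and Lta did not pass. Tnf, the founding cytokine of the family, was at 17.0, 12.0 and 11.5 CPM in replicates 1, 2 and 3 of KO and at 5.03, 4.96 and 3.07 CPM in WT replicates 1, 2 and 3. The groups did not overlap, and edgeR gave a log2 fold change of 1.63 (SE 0.37, edgeR adjusted p = 0.0328). Ltb, which pairs with lymphotoxin alpha on the surface of lymphocytes, was at 91.8, 28.9 and 156 CPM in the KO libraries against 19.3, 8.95 and 7.80 in the WT libraries. KO replicate 2 was the lowest of its group but above every WT library, and edgeR gave a log2 fold change of 2.94 (SE 0.65, adjusted p = 0.0307). Lta, lymphotoxin alpha, was at 3.47, 1.91 and 1.20 CPM in the KO libraries against 0.546, 0.855 and 0.446 in the WT libraries, with no overlap and a log2 fold change of 1.83 (SE 0.62, adjusted p = 0.0951). The 3 genes lie side by side on chromosome 17 of mm10, Ltb at 35194439 to 35196320, Tnf at 35199381 to 35202007 and Lta at 35203165 to 35205351. The upstream window of Ltb held the NF-kB consensus and is printed because the gene rose. Its window, chr17:35194257-35194506 on the plus strand of GRCm38.p6, covers the 250 bases before the RefSeq start, and capitals mark the match at positions -87 to -78.
Ltb upstream window: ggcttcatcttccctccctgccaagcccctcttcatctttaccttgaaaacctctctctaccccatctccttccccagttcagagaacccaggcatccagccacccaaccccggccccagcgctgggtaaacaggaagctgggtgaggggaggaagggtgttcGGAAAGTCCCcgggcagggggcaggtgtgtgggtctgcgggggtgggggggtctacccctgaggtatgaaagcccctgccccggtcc
On either strand the consensus was found in 4 of 35 RefSeq windows from 31 members (11.4%) and in 2382 of 32851 windows of all genes (7.25%). The others were Tnfrsf8, Tnfrsf25 and the second start of Tnfrsf9, whose window at chr4:150927749-150927998 on the plus strand held overlapping matches, in capitals, the first at position -43. It is shown beside Ltb because Tnfrsf9 carried a match and did not pass, with values given among the costimulatory receptors.
Tnfrsf9 upstream window: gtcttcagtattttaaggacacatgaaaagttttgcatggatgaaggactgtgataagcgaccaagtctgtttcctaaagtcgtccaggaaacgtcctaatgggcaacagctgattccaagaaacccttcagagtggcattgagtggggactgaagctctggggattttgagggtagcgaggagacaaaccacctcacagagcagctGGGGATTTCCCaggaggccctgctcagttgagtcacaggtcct
A match describes these letters only, and binding was not measured.

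Both death ligands had every KO library above every WT library, and only Fasl passed. Fasl, which triggers the receptor Fas from cytotoxic lymphocytes, was at 12.0, 3.96 and 7.13 CPM in the KO libraries against 2.30, 1.94 and 2.11 in the WT libraries. Its log2 fold change was 1.86 (SE 0.49, edgeR adjusted p = 0.0497), close to the threshold, and the call was lost with RLE scaling, no composition scaling, robust fitting and limma-voom. Tnfsf10, known as TRAIL, was at 55.5, 49.2 and 31.4 CPM in the KO libraries against 16.5, 31.4 and 26.5 in the WT libraries. KO replicate 3 and WT replicate 2 almost touched, and edgeR gave a log2 fold change of 0.87 (SE 0.34, adjusted p = 0.132).

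Tnfsf12 and Tnfsf13 are neighbours on chromosome 11 and both rose. Tnfsf12, known as TWEAK, was at 84.2, 29.2 and 138 CPM in the KO libraries against 19.9, 14.7 and 16.8 in the WT libraries, a log2 fold change of 2.29 (SE 0.52, edgeR adjusted p = 0.0332). Tnfsf13, known as APRIL, a survival factor for plasma cells, was at 36.2, 11.3 and 39.5 CPM in the KO libraries against 7.19, 5.87 and 6.70 in the WT libraries, a log2 fold change of 2.14 (SE 0.48, adjusted p = 0.0320). For both, the KO libraries were all above the WT libraries, with KO replicate 2 the nearest to WT. A read-through transcript named Tnfsfm13 joins the 2 genes. Of all 100-base windows of Tnfsf12 transcripts, 44.9% occur in it as well. Of those of Tnfsf13 transcripts, 54.2% occur in Tnfsfm13 or Tnfsf13os. Tnfsfm13 was itself called higher (log2 fold change 2.07, SE 0.46, adjusted p = 0.0310), so the split of reads among Tnfsf12, Tnfsf13 and Tnfsfm13 is uncertain. Tnfsf13os, whose exons share 221 bases with those of Tnfsf13 on the other strand, had a log2 fold change of 1.50 (SE 0.59, adjusted p = 0.130). Without strand, reads from the shared stretch cannot be told apart.

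The other B cell and tissue ligands did not pass. Tnfsf13b, known as BAFF, the main survival factor of mature B cells, was at 23.2, 14.8 and 5.88 CPM in the KO libraries against 16.6, 8.18 and 6.73 in the WT libraries. The groups overlapped, with KO replicate 3 the lowest library and KO replicate 1 the highest. The fitted log2 fold change was 0.48 (SE 0.56, edgeR adjusted p = 0.563), and it was -0.070 without KO replicate 1. Tnfsf11, known as RANKL, the osteoclast-inducing ligand, was at 2.72, 1.88 and 1.05 CPM in the KO libraries against 0.874, 0.313 and 0.863 in the WT libraries. Its groups did not overlap, and edgeR gave a log2 fold change of 1.46 (SE 0.65, adjusted p = 0.164).

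Of 8 costimulatory ligands 7 were tested, and Cd40lg was the one that rose. Cd40lg, the helper T cell ligand that activates B cells and antigen-presenting cells, was at 2.72, 0.684 and 0.897 CPM in the KO libraries against 0.164, 0.142 and 0.119 in the WT libraries. The groups were far apart, but the WT values rest on 6, 5 and 4 reads, and edgeR gave a log2 fold change of 3.30 (SE 0.78, edgeR adjusted p = 0.0365). Tnfsf14 (LIGHT), Tnfsf15 (TL1A) and Tnfsf8 (CD30 ligand) also had every KO library above WT but did not pass, with log2 fold changes of 2.38, 2.84 and 1.19 and adjusted p of 0.0512, 0.0856 and 0.146. Tnfsf4 (OX40 ligand), Tnfsf18 (GITR ligand) and Tnfsf9 (4-1BB ligand) overlapped between groups, with log2 fold changes of 1.00, 0.73 and -0.21. Tnfsf9 is the one tested ligand with a fold change below 0. Cd70, the ligand of CD27, had 17, 4 and 0 reads in KO and 5, 3 and 1 in WT, too few for the main filter, and the test without the filter gave an adjusted p of 0.557.

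**Figure D2:**
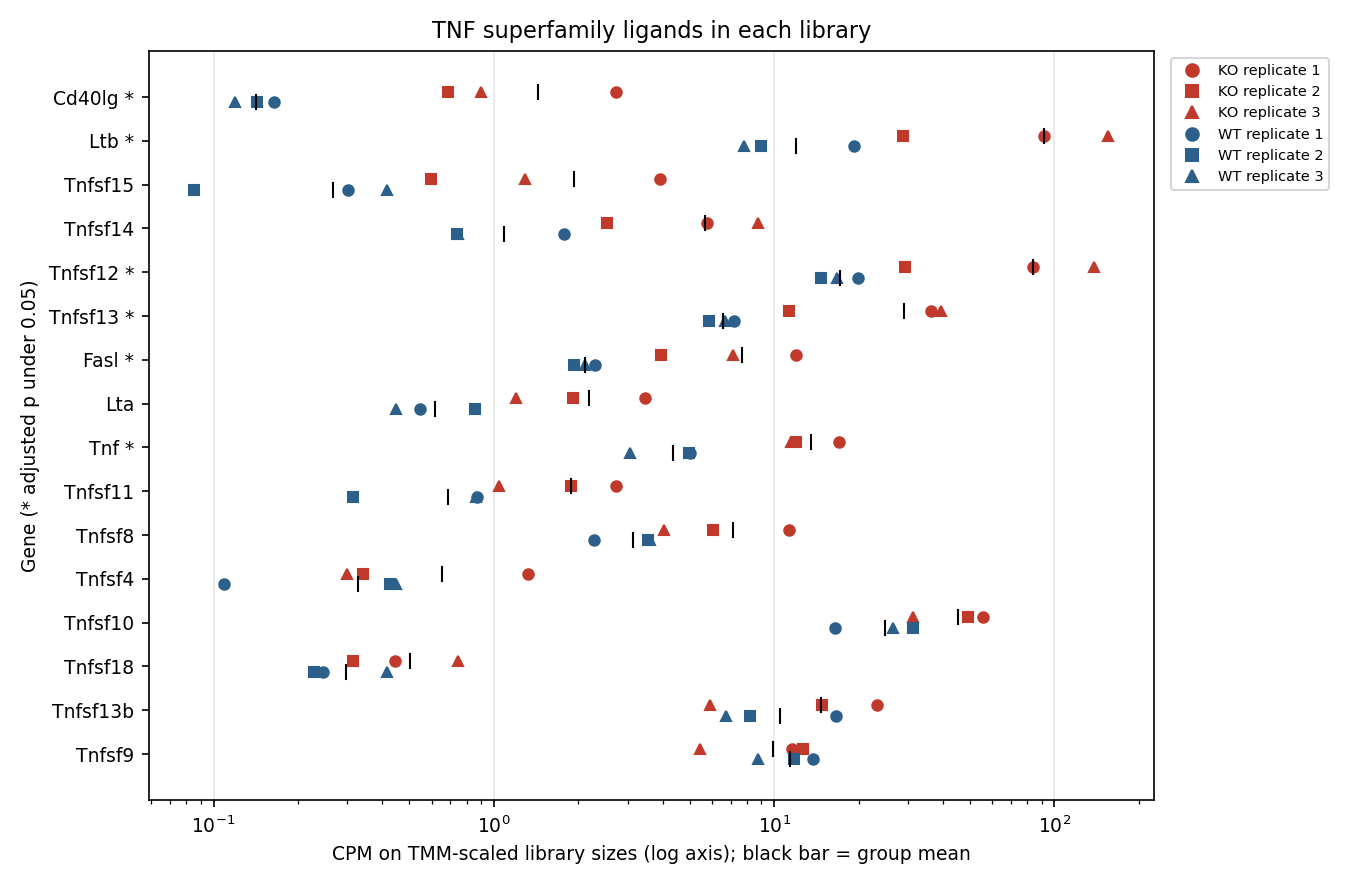
Each point is 1 library's level of a tested ligand in CPM on a log axis, red for KO and blue for WT, with shapes for replicates 1 to 3 and black bars for group means. In the 6 ligands with an asterisk all red points lie to the right of all blue points, while Tnfsf9, Tnfsf13b, Tnfsf4 and Tnfsf18 overlap.

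Of the 5 receptors with a death domain, Tnfrsf21 and Tnfrsf10b rose. Tnfrsf21 (death receptor 6) was at 88.3, 41.7 and 63.2 CPM in the KO libraries against 8.88, 9.91 and 10.5 in the WT libraries. The WT libraries were tightly grouped and the lowest KO library was well above them, with a log2 fold change of 2.72 (SE 0.34, edgeR adjusted p = 0.0246). Tnfrsf10b, the mouse TRAIL receptor, was at 10.1, 5.50 and 12.8 CPM in the KO libraries against 2.46, 1.45 and 1.67 in the WT libraries, a log2 fold change of 2.34 (SE 0.47, adjusted p = 0.0264). Fas was at 10.7, 4.87 and 13.5 CPM in the KO libraries against 4.10, 2.02 and 1.73 in the WT libraries, so that KO replicate 2 and WT replicate 1 were close. Its log2 fold change was 1.88 (SE 0.54, adjusted p = 0.0628). Tnfrsf1a, the broadly expressed TNF receptor 1, was at 191, 132 and 155 CPM in the KO libraries against 123, 99.0 and 94.1 in the WT libraries. The groups did not overlap but the difference was small, a log2 fold change of 0.59 (SE 0.27, adjusted p = 0.174). Tnfrsf25 (death receptor 3), the receptor of Tnfsf15, had a log2 fold change of 2.56 (adjusted p = 0.0576), with KO libraries at 3.36 to 23.3 CPM and WT at 1.31 to 2.95 CPM.

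Of the 5 receptors that signal through TRAF adaptors without a death domain and outside lymphocyte costimulation, 2 rose, and 2 of the others had fold changes well below 0. Tnfrsf1b, TNF receptor 2, known from leukocytes and endothelium, was at 367, 120.4 and 373 CPM in the KO libraries against 38.3, 45.6 and 40.6 in the WT libraries. All KO libraries were above WT, KO replicate 2 far below the other KO libraries, and edgeR gave a log2 fold change of 2.79 (SE 0.46, edgeR adjusted p = 0.0246). Tnfrsf11a, the receptor RANK, was at 33.7, 14.6 and 22.9 CPM in the KO libraries against 2.98, 8.09 and 4.79 in the WT libraries, a log2 fold change of 2.17 (SE 0.49, adjusted p = 0.0318). Ltbr, the lymphotoxin beta receptor, was at 83.0, 85.4 and 84.6 CPM in the KO libraries against 127, 86.4 and 88.6 in the WT libraries. Its groups did not overlap only by a narrow margin, and edgeR gave a log2 fold change of -0.26 (SE 0.26, adjusted p = 0.499).

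Tnfrsf12a, the TWEAK receptor Fn14, was at 22.2, 82.5 and 10.8 CPM in the KO libraries against 124, 117 and 101 in the WT libraries. Every KO library was below WT, KO replicate 2 the nearest to it. The fitted log2 fold change was -1.56 (SE 0.67, edgeR adjusted p = 0.153), and without KO replicate 2 it was -2.80 with an adjusted p of 0.00209. Tnfrsf19, known as TROY, an orphan receptor of neural tissue and skin, was at 8.40, 43.2 and 2.89 CPM in the KO libraries against 41.2, 57.1 and 56.6 in the WT libraries. KO replicate 2 lay within the WT range and the other KO libraries far below it. The fitted log2 fold change was -1.50 (SE 0.83, adjusted p = 0.237), and without KO replicate 2 it was -3.20 with an adjusted p of 0.00351. Neither Tnfrsf12a nor Tnfrsf19 passed in any other edgeR fit that left out 1 library. The fit without KO replicate 2 called 18.5% of all genes lower. KO replicate 2 was also the KO library with the highest summed glial level without Vim, 563 CPM, against 68.5 and 47.9 CPM in the other KO libraries; its part in these 2 receptors was not tested.

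All 6 lymphocyte costimulatory receptors except Tnfrsf9 had every KO library above WT, and Cd27, Tnfrsf18 and Tnfrsf8 rose. Cd27, a costimulator of naive and memory T cells, was at 36.1, 13.2 and 19.7 CPM in the KO libraries against 3.85, 4.24 and 3.36 in the WT libraries, a log2 fold change of 2.59 (SE 0.44, edgeR adjusted p = 0.0246). Tnfrsf18, known as GITR and abundant on regulatory T cells, was at 32.8, 15.1 and 20.9 CPM in the KO libraries against 9.45, 6.64 and 7.20 in the WT libraries, a log2 fold change of 1.56 (SE 0.37, adjusted p = 0.0376). Of its transcript windows 12.4% also occur in Gm16008 on the other strand, which did not pass (log2 fold change 0.20). Tnfrsf8, known as CD30, whose call was lost with RLE scaling, no composition scaling and limma-voom, was at 2.55, 1.03 and 2.19 CPM in the KO libraries against 0.328, 0.199 and 0.446 in the WT libraries, a log2 fold change of 2.55 (SE 0.65, adjusted p = 0.0436). Tnfrsf4 (OX40) was at 29.8, 13.4 and 13.2 CPM in the KO libraries against 10.7, 4.87 and 3.84 in the WT libraries, with a log2 fold change of 1.54 (SE 0.53, adjusted p = 0.0978). Tnfrsf14 (HVEM), the receptor of Tnfsf14, had a log2 fold change of 1.33 (adjusted p = 0.0512). Tnfrsf9 (4-1BB), a receptor of activated T cells, stood apart from this group at 28.9, 26.2 and 30.8 CPM in the KO libraries against 35.6, 25.5 and 20.4 in the WT libraries. The KO libraries lay inside the WT range. The fitted log2 fold change was 0.074 (95% interval -0.59 to 0.74, adjusted p = 0.869), and it was -0.043 with no composition scaling. T cell genes were summed at 187 to 605 CPM in the KO libraries against 70.7 to 112 in the WT libraries over 10 genes, 8 of them called higher; their part in these receptors was not tested.

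Of 4 receptors known from B and plasma cells 3 were tested, and Tnfrsf13b was the one that rose. Tnfrsf13b (TACI), a receptor for both Tnfsf13 and Tnfsf13b, was at 25.4, 10.3 and 29.4 CPM in the KO libraries against 3.72, 4.84 and 3.66 in the WT libraries, a log2 fold change of 2.41 (SE 0.45, edgeR adjusted p = 0.0246). Cd40, also found on macrophages and dendritic cells, was at 39.6, 25.9 and 15.3 CPM in the KO libraries against 15.1, 10.4 and 7.14 in the WT libraries. KO replicate 3 and WT replicate 1 nearly met, and edgeR gave a log2 fold change of 1.31 (SE 0.44, adjusted p = 0.0938). Tnfrsf17 (BCMA), a receptor of plasma cells, had 8, 5 and 8 reads in KO and 0 in each WT library. These were too few for the main filter, and the edgeR test without the filter gave an adjusted p of 0.0537. The KO mean was 3.17 times the level of 3 reads in each WT library, with no allowance for the spread in KO. Tnfrsf17 met the minimum of 10 reads through KO alone, so its higher level there partly follows from that rule. Tnfrsf13c (BAFF receptor), a receptor of mature B cells, had a fold change below 0 like that of Tnfrsf12a. It was at 1.73, 5.61 and 1.40 CPM in the KO libraries against 11.7, 7.38 and 7.11 in the WT libraries, with no overlap. Its log2 fold change was -1.57 (SE 0.60, adjusted p = 0.124), and it passed without KO replicate 2 (-2.49, adjusted p = 0.00501) and in DESeq2 (-1.65, adjusted p = 0.0323). Of all genes, 18.5% were called lower without KO replicate 2 and 6.83% in DESeq2. Tnfrsf13c did not pass in any other edgeR fit that left out 1 library. Like Tnfrsf13c, the B cell factor Pax5 had a lower mean in KO, at 2.98 ± 3.51 CPM in the KO libraries against 7.71 ± 2.62 in the WT libraries (SD, n = 3 each, adjusted p = 0.286). By contrast the 4 listed B and plasma cell genes that passed, Cd79b, Blk, Jchain and Mzb1, were called higher in KO; their part in the levels of these receptors was not tested. The mature B cell gene Ms4a1 did not pass, with means of 0.694 (KO) and 0.106 CPM (WT).

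Tnfrsf23, Tnfrsf26 and Tnfrsf22 form a cluster on chromosome 7 of mm10, between 143607659 and 143685872, and the first 2 rose while Tnfrsf22 did not pass. Tnfrsf22 and Tnfrsf23 are mouse decoy receptors for TRAIL, and Tnfrsf26 is their neighbour. The coding sequences of Tnfrsf22 (594 bases) and Tnfrsf23 (528 bases) were identical at 479 of 528 aligned bases, or 90.7%, while Tnfrsf26 was 62.5% and 60.8% identical to them over the aligned bases. A stretch of 120 bases is given, chosen as the gap-free stretch of that length with the most differences. It covers bases 77 to 196 of the Tnfrsf22 and 47 to 166 of the Tnfrsf23 coding sequence. Capitals mark the 18 bases that differ.
Tnfrsf22: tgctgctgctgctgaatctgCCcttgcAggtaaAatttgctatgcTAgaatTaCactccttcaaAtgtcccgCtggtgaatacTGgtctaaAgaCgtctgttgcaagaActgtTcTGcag
Tnfrsf23: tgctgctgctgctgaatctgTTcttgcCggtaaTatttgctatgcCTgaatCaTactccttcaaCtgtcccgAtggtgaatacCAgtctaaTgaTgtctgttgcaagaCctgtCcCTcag
Differences were uneven, and the longest run without one was 102 bases. Of the 100-base windows of Tnfrsf23 transcripts 9.31% occur in Tnfrsf22. Of those of Tnfrsf22 transcripts 15.8% occur in other genes, Tnfrsf23 among them. Reads there could be split or lost by the counting, for Tnfrsf22 as well as for Tnfrsf23. Tnfrsf23 was at 33.3, 19.1 and 27.9 CPM in the KO libraries against 4.86, 4.59 and 4.67 in the WT libraries, a log2 fold change of 2.50 (SE 0.33, edgeR adjusted p = 0.0246). Tnfrsf26 was at 25.0, 12.0 and 21.0 CPM in the KO libraries against 3.47, 4.30 and 3.87 in the WT libraries, a log2 fold change of 2.32 (SE 0.38, adjusted p = 0.0246). Both had narrow WT ranges and KO libraries well above them. Tnfrsf22 was at 7.21, 9.80 and 9.77 CPM in the KO libraries against 5.82, 10.8 and 9.19 in the WT libraries. Here the KO libraries lay inside the WT range, and edgeR gave a log2 fold change of 0.051 (95% interval -0.80 to 0.90, adjusted p = 0.929), or -0.025 with RLE scaling and -0.12 with none. An opposite-strand gene, E230032D23Rik, shares 164 bases of exon with Tnfrsf23 and 107 with Tnfrsf26. It was called higher too, at 15 to 72 reads in KO and 2 to 7 in WT, far fewer than the 157 to 979 reads of Tnfrsf23. Tnfrsf11b, osteoprotegerin, the soluble decoy for Tnfsf11, was at 7.21, 13.9 and 1.94 CPM in the KO libraries against 10.8, 12.5 and 18.2 in the WT libraries. The groups overlapped through KO replicate 2, and edgeR gave a log2 fold change of -0.84 (SE 0.64, adjusted p = 0.370).

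**Figure D3:**
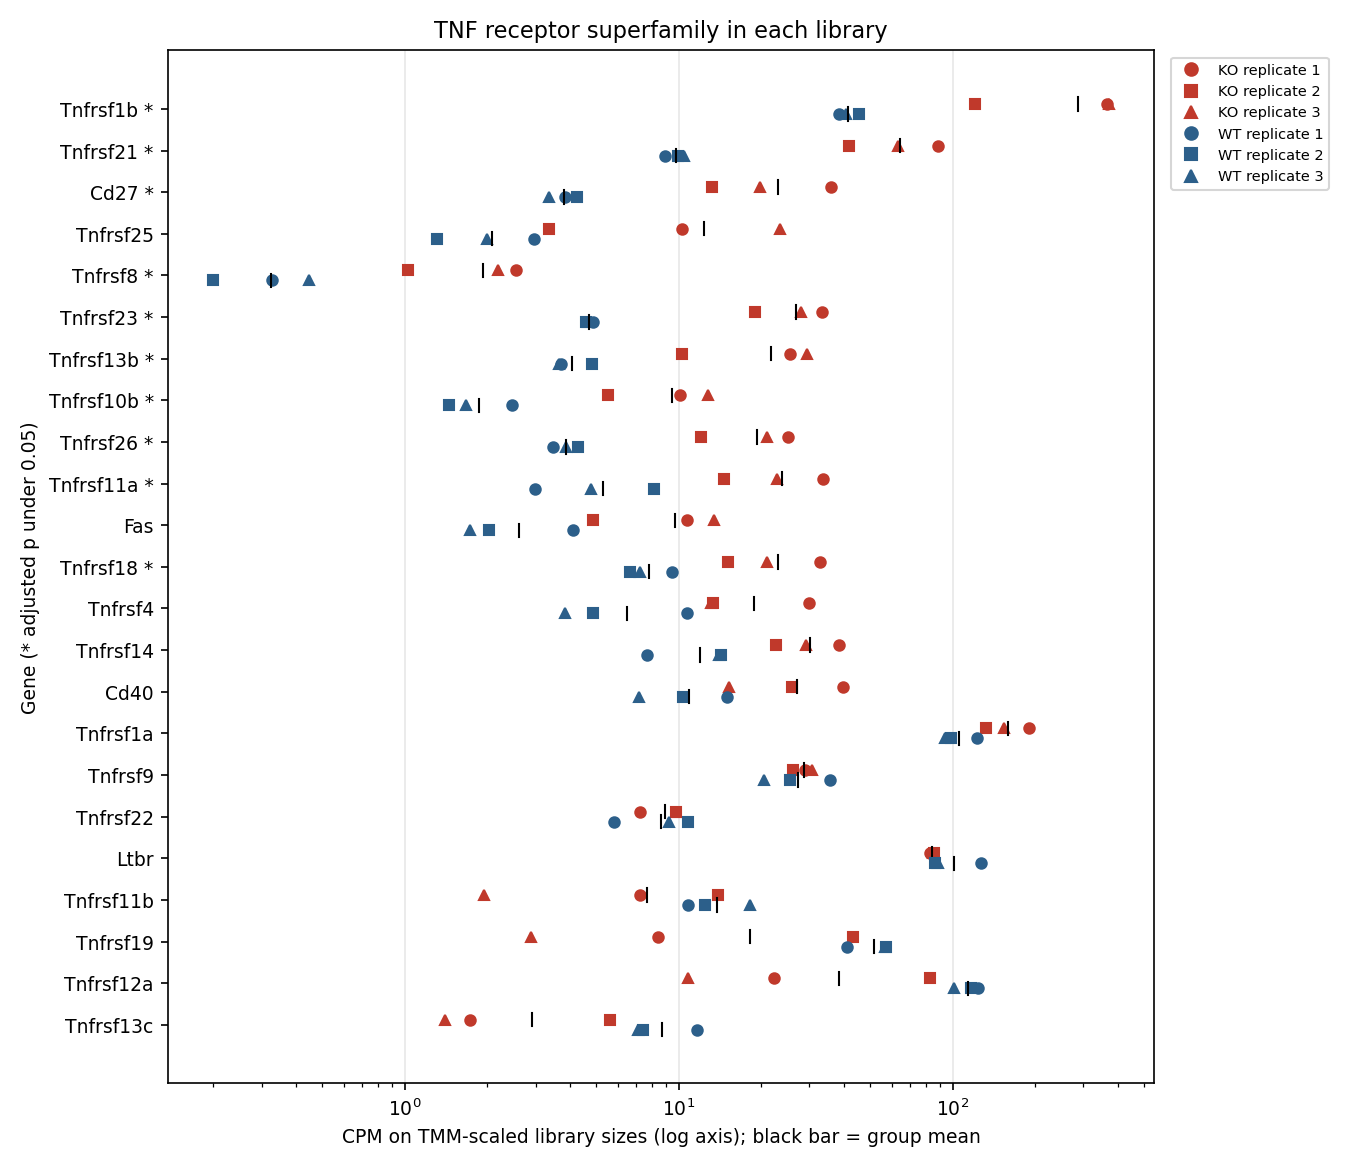
Each point is 1 library's level of a tested receptor in CPM on a log axis, red for KO and blue for WT, with shapes for replicates 1 to 3 and black bars for group means. The 10 receptors with an asterisk have all red points to the right of all blue points, and KO replicate 2 is the red point nearest to the blue in Tnfrsf12a, Tnfrsf19 and Tnfrsf13c.

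The 16 calls depend on the libraries and the test used. With all libraries, limma-voom called 9 members higher (5.31% of all genes) and DESeq2 24 (17.9%). Of the 16, limma-voom missed all ligands but Tnf, and Tnfrsf18 and Tnfrsf8. Tnfrsf11a missed the threshold with no composition scaling. Without KO replicate 1 or any single WT replicate edgeR called 0 of all genes, while 3461 to 4931 genes had an unadjusted p under 0.05, 20 to 24 members higher and 0 or 1 lower among them. Without KO replicate 3 it called 6 members higher (Tnfrsf21, Tnfrsf1b, Cd27, Tnfrsf23, Tnfrsf26 and Tnfrsf13b; 4.85% of all genes) and 0 ligands, and without KO replicate 2 it called 23 members higher and 3 lower (Tnfrsf12a, Tnfrsf13c and Tnfrsf19). That fit called 22.7% of all genes higher and 18.5% lower, a larger share than 3 of 40 members. Over the 6 fits that each left out 1 library the log2 fold changes of the 16 stayed above 0, from 1.15 for Tnfrsf18 to 3.63 for Cd40lg. Of these 16, KO replicate 2 was the lowest KO library in 15, Tnf being the exception, and the highest library was KO replicate 1 in 10 and KO replicate 3 in 6. Counting all 33 members whose groups did not overlap, the KO library nearest to WT was replicate 2 in 26, replicate 3 in 7 and replicate 1 in 0. Tnfrsf17 is among the 33, as a member through its KO reads alone.

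Levels of different genes were compared as CPM per kilobase of exon. In WT the leading receptors were Tnfrsf12a at 59.0 ± 6.08, Ltbr at 42.8 ± 9.78 and Tnfrsf1a at 40.7 ± 5.97 CPM per kilobase (SD, n = 3). The libraries of Ltbr and Tnfrsf1a overlapped, so their order is not resolved. Tnfrsf19 at 10.9 ± 1.92 and Tnfrsf1b at 10.9 ± 0.977 came next and did not differ beyond their spread. In KO the leading receptor was Tnfrsf1b at 75.0 ± 37.7, followed by Tnfrsf1a at 61.4 ± 11.4 and Ltbr at 35.8 ± 0.532 CPM per kilobase. The first 2 overlapped, since KO replicate 2 had 31.5 for Tnfrsf1b and 51.0 for Tnfrsf1a. Tnfrsf12a stood at 19.9 ± 19.9, from 42.7 in KO replicate 2 down to 5.60 in KO replicate 3. Among ligands, Tnfsf12 at 11.3 ± 1.75, Tnfsf9 at 8.84 ± 1.95 and Ltb at 7.92 ± 4.18 CPM per kilobase led in WT, with overlapping libraries. Ltb at 60.8 ± 41.8 and Tnfsf12 at 55.4 ± 36.0 led in KO and were not separable, followed by Tnfsf13 at 17.7 ± 9.42. The lowest in both groups included Tnfsf15, Tnfsf18, Cd70 and Tnfsf4 among ligands and Tnfrsf17 and Tnfrsf8 among receptors, all under 1 CPM per kilobase.

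The balance of a ligand and its receptor was taken in each library as the log2 ratio of their levels per kilobase, for 12 known pairs and with no test. The 12 were a chosen set that leaves out other pairs among the members, such as Cd40lg and Cd40 or Tnfsf4 and Tnfrsf4. In 5 pairs every KO library lay above every WT library. Of single genes 24.6% showed that pattern, but no share over other gene pairs was taken, so 5 of 12 has no baseline. For Tnfsf12 over Tnfrsf12a the log2 ratio was 2.27, -1.15 and 4.03 in KO and -2.28, -2.64 and -2.24 in WT. The ligand exceeded the receptor in KO replicates 1 and 3 and was below it in the other 4 libraries. The ratio of Ltb to Ltbr was 0.78, -0.93 and 1.51 in KO and -2.09, -2.64 and -2.87 in WT, again with KO replicate 2 on the WT side of 0. Tnfsf13b over Tnfrsf13c was 2.0, -0.35 and 0.33 in KO and -1.23, -1.60 and -1.83 in WT. The remaining 2 of the 5 had receptor above ligand in every library. Tnfsf11 over its decoy Tnfrsf11b was -1.07, -2.55 and -0.56 in KO and -3.29, -4.98 and -4.07 in WT, and Tnf over Tnfrsf1a was -2.83, -2.80 and -3.09 in KO and -3.95, -3.66 and -4.28 in WT. In the other 7 pairs the groups overlapped, among them Fasl and Fas, Tnfsf13 and Tnfrsf13b, and Tnf and Tnfrsf1b, where both partners had every KO library above WT.

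**Figure D4:**
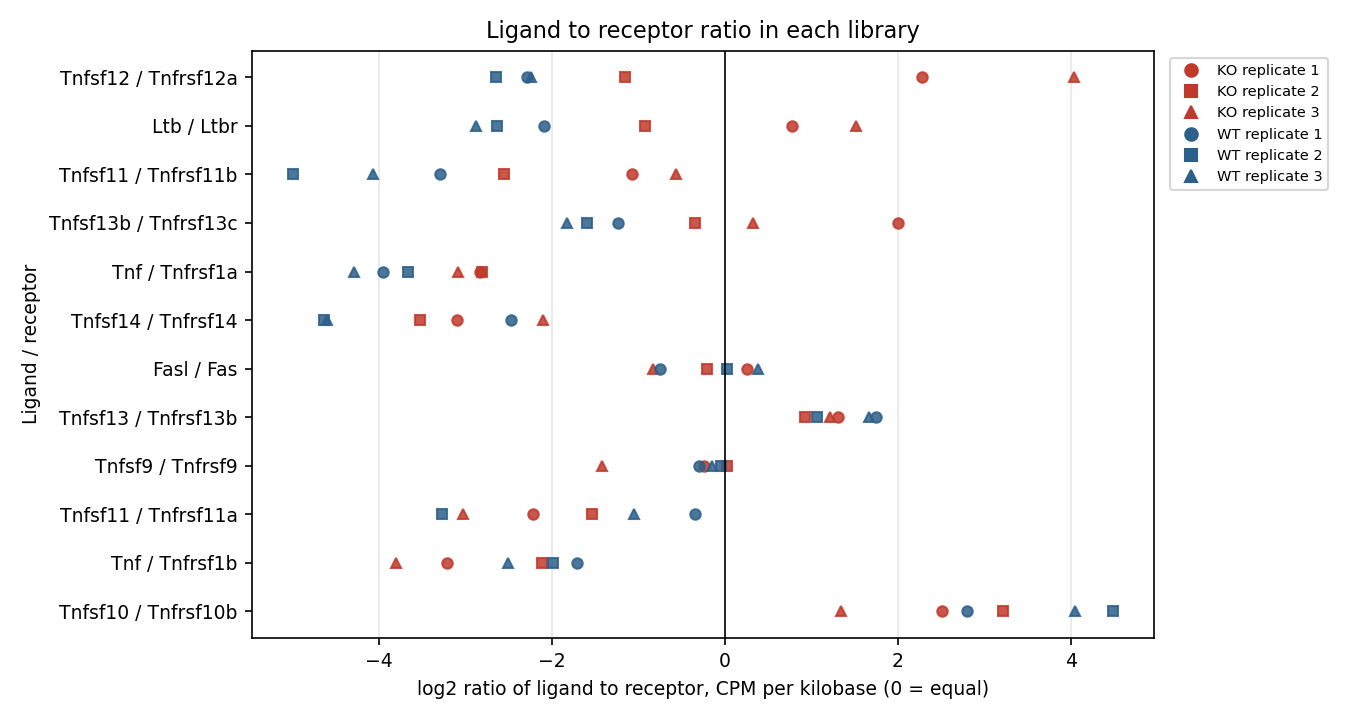
Each point is 1 library's log2 ratio of ligand to receptor, both in CPM per kilobase, red for KO and blue for WT, with shapes for replicates 1 to 3 and a line at equal levels. In the 5 pairs Tnfsf12 / Tnfrsf12a, Ltb / Ltbr, Tnfsf11 / Tnfrsf11b, Tnfsf13b / Tnfrsf13c and Tnf / Tnfrsf1a all red points lie to the right of all blue points.

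Each member was then set against the 8 leukocyte genes (Ptprc, Cd53, Laptm5, Coro1a, Rac2, Vav1, Itgb2 and Cd48) measured in the same library, again with no test. The mean log2 level of these genes was 2.32 higher in KO than in WT. Relative to it, the KO minus WT difference of the 16 called members ran from -0.82 to 0.42 with a median of -0.057. The groups overlapped in 13. The 16 members and the 8 leukocyte genes had all been called higher in KO by the same fit. Differences near 0 partly follow from that choice, and other genes called higher were not set beside them. Tnfrsf1b was the one member of the 40 that stayed higher in every KO library, at log2 ratios of 0.21, 0.16 and 0.20 in KO and -0.31, -0.083 and 0.080 in WT. Tnfsf13 and Fasl were lower in every KO library, by a mean of -0.39 and -0.63. Over all 40 tested members the ratio overlapped between groups in 26 and was lower in every KO library in 13. Of all genes tested, 77.5% were lower in every KO library on this scale and 1.36% higher. The lowest ratios against WT were those of Tnfrsf19, Tnfrsf12a, Tnfrsf13c and Tnfrsf11b. For Tnfrsf12a the log2 ratio was -3.83, -0.38 and -4.90 in KO and 1.38, 1.28 and 1.39 in WT, and for Ltbr it was -1.93, -0.34 and -1.94 in KO and 1.42, 0.84 and 1.20 in WT. Tnfrsf1a, whose level was higher in every KO library, had a mean ratio of -0.50 in KO and 1.23 in WT.

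**Figure D5:**
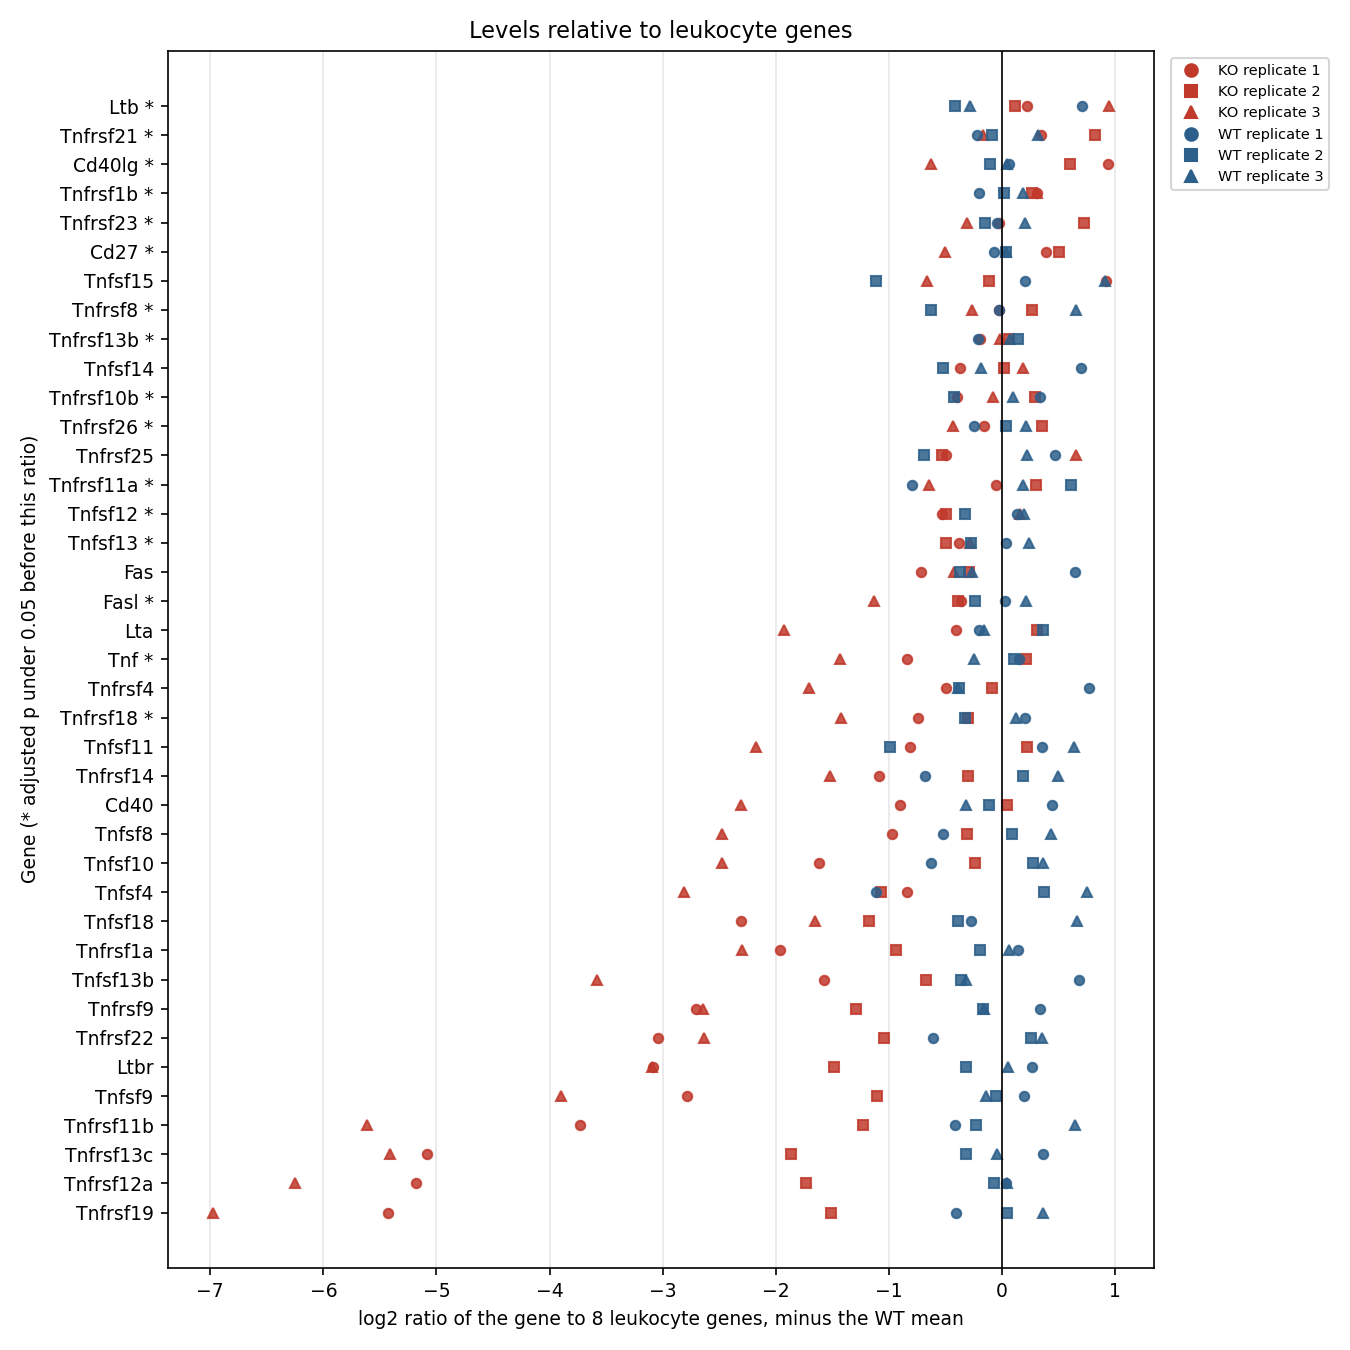
Each point is 1 library's log2 ratio of a gene to the mean of 8 leukocyte genes, shifted so that the WT mean of the gene is 0, red for KO and blue for WT, with shapes for replicates 1 to 3. Genes with an asterisk were called higher in KO before the ratio was taken and gather near 0, while Tnfrsf12a, Tnfrsf19, Tnfrsf13c and Ltbr extend to the left.

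A list of 41 genes covered the signalling pathway below these receptors and the release of ligands from the membrane. By edgeR 7 of them rose and 0 fell, a share of 17.1% higher beside 11.2% of all genes. At an unadjusted p under 0.05 it was 17 and 0, beside 4137 and 1782 of all 18621 genes. The median log2 fold change was 0.40. DESeq2 called 12 higher and 0 lower, beside 17.9% and 6.83% of all genes. With limma-voom it was 4 and 0, beside 5.31% of all genes higher. Among 14 adaptors and kinases Traf1, an adaptor that is itself an NF-kB target, rose by 2.54 (SE 0.47, adjusted p = 0.0246) and Map3k14, the kinase NIK of the alternative NF-kB route, by 1.48 (SE 0.35, adjusted p = 0.0353) on the log2 scale. Traf1 was at 90.2, 26.7 and 65.1 CPM in the KO libraries against 13.6, 9.54 and 8.15 in the WT libraries, with no overlap. Of 5 NF-kB subunits Nfkb1 passed, at 152, 89.1 and 127 CPM in the KO libraries against 46.4, 60.0 and 59.0 in the WT libraries. Of 13 inhibitors and ubiquitin enzymes 3 rose, namely Tnfaip3 (A20), which shuts off NF-kB signalling, by 1.66 (adjusted p = 0.0265), Birc3, a ubiquitin ligase of the TNF receptor complex, by 1.64 (adjusted p = 0.0272) and Nfkbia, the NF-kB inhibitor, by 1.23 (adjusted p = 0.0473). Nfkb1 and Nfkbia missed the threshold with RLE scaling, no composition scaling and limma-voom, and Map3k14 with the last 2. None of 6 death effectors passed, the nearest being Casp8 with a log2 fold change of 0.99 (adjusted p = 0.0518), and 4 of the 6 had an unadjusted p under 0.05. DESeq2 called 1 of them higher, limma-voom 0, and limma-voom with quality weights 4 higher and 1 lower. Of all 18621 genes, quality weights called 5531 higher and 4749 lower. Of the sheddase Adam17, which releases TNF from the membrane, and its partners Rhbdf1 and Rhbdf2, Rhbdf2 rose by 2.28 (SE 0.35, adjusted p = 0.0246). It was at 87.5, 45.0 and 88.6 CPM in the KO libraries against 13.9, 18.9 and 12.6 in the WT libraries. Adam17 and Rhbdf1 did not pass, with log2 fold changes of 0.28 and -0.86. Without KO replicate 3, 2 of these 7 genes were still called, Traf1 and Rhbdf2, beside 4.85% of all genes called higher. None was called without KO replicate 1 or a single WT replicate.

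Of 5 superfamily genes that carry other symbols, 0 of the 3 tested passed by edgeR, DESeq2 or limma-voom, and 2 had an unadjusted p under 0.05 in edgeR. With quality weights limma-voom called 2 higher and 1 lower, beside 5531 and 4749 of all 18621 genes. Ngfr, the low-affinity neurotrophin receptor, was at 21.3, 99.7 and 2.69 CPM in the KO libraries against 91.4, 166 and 141 in the WT libraries. KO replicate 2 overlapped with WT and the other KO libraries were lower, as for Tnfrsf19, with a log2 fold change of -1.68 (SE 1.00, adjusted p = 0.265). Eda2r and Relt had log2 fold changes of 1.87 (adjusted p = 0.137) and 0.92 (adjusted p = 0.123).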

How the data were processed

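Bulk RNA-seq of 3 KO and 3 WT tumour libraries was analysed. The values are raw counts of reads, 1 row per gene symbol, as deposited by the authors, mapped to mm10 per the submitters' processing notes, which also name DESeq2 without its version or role. The aligner, the counter and its strand setting: not given in the sources used here. Library preparation with Smart-seq2 is per the labels' protocols. Counts were tested with edgeR 4.0.16 in R 4.3.3: TMM scaling, default filterByExpr, quasi-likelihood F test, two-sided, Benjamini-Hochberg adjustment over all 18621 genes tested, threshold 0.05. The step was run on simulated counts with changed genes in random directions and no outlying library. In these data most calls were higher and KO replicate 2 stood apart, so that run does not cover them. CPM use TMM-scaled totals, log2 ratios to leukocyte genes a prior count of 2. Alternatives were DESeq2 1.42.0, limma 3.58.1 (voom), other scalings and filters, and leaving out each library. Replicate numbers follow accession order. Values were printed per library for members past the threshold and for a written list of ligands and receptors, and for up to 4 genes of smallest p per pathway list. Members and gene lists were chosen with earlier results of these data known. Positions of 41 of 42 members matched GENCODE M21, which gave transcripts and coding sequences. Upstream windows are from RefSeq.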

Additional observations from a re-analysis of the deposited data

How the results depend on the processing

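No paired analysis was possible because the replicate numbers are only accession order. Counts given as pairs below are calls higher and lower in KO. All genes gave 3266 and 1244 with DESeq2, 988 higher with limma-voom, and 5531 and 4749 with limma-voom and quality weights, and the calls lower numbered 24 with no composition scaling and 476 with no low-count filter. Leaving out 1 library gave 0 to 4449 higher and 0 to 3629 lower. Ligands called higher were 1 with limma-voom and 13 with quality weights, and 0 to 8 without 1 library. Receptors called higher were 16 with quality weights and 0 to 14 without 1 library, and receptors called lower were 1 with DESeq2, 4 with quality weights (Tnfrsf11b, Tnfrsf12a, Tnfrsf13c and Tnfrsf19) and 0 to 3 without 1 library. Pathway genes called higher were 4 with no composition scaling, 12 with DESeq2, 4 with limma-voom, 24 with quality weights and 0 to 16 without 1 library, and those called lower were 4 with quality weights and 0 to 2 without 1 library. Relative to Ptprc alone, 2 members were higher in every KO library. The cause was not tested. The direction changed for Tnfrsf22 (log2 fold change -0.025 with RLE scaling and with DESeq2, -0.12 with no composition scaling, -0.35 with quality weights, and -0.18 to 0.23 without 1 library), for Tnfrsf9 (-0.043 with no composition scaling and -0.12 to 0.30 without 1 library), and, without 1 library, for Tnfsf13b (-0.070 to 0.96), Tnfsf4 (-0.067 to 1.32) and Tnfsf9 (-0.44 to 0.057). The median of all genes moved from -0.045 with TMM to -0.12 with RLE and -0.18 with no composition scaling. Members under 1 CPM rest on few reads. Cd70 and Tnfrsf17 were tested without the low-count filter alone, and neither passed.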
